A study of Mus musculus with 6 samples.

Results

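The 10 Oas genes of the mouse cluster were followed in fully grown oocytes (FGOs): Oas1a, Oas1b, Oas1c, Oas1d, Oas1e, Oas1f, Oas1g, Oas1h, Oas2 and Oas3. They were chosen by name, as the rows of the deposited expression table that carry these 10 symbols, among 24255 genes in all. The libraries came from 2 genotypes, WT mice and homozygous Lsm14b-KO mice, with 3 libraries each. The Lsm14b-KO allele is Lsm14b tm1a(KOMP)Mbp, a reporter-tagged insertion of the knockout-first type on a C57BL/6J background. In both genotypes the females had been primed with 5 IU of pregnant mare serum gonadotrophin (PMSG) for 46 h, and each library was made from 20 germinal vesicle stage FGOs. The labels for these libraries give neither the age of the mice nor whether replicates came from separate animals, so the p-values measure the spread between libraries, which may be partly technical. In bulk libraries such as these, fewer oocytes holding a transcript and less of it per oocyte cannot be told apart.

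Oligoadenylate synthetases (OAS) are sensors of double-stranded RNA. An active enzyme that binds such RNA joins ATP into 2′-5′ linked oligoadenylates, a second messenger of the antiviral response, and in most tissues the genes are switched on by interferon. The mouse carries a family of Oas1 copies beside Oas2 and Oas3, and some of these copies are known mainly from the ovary. Oas1d is the best known of them, an oocyte protein without synthetase activity. For description the genes were placed in 3 classes: 3 oocyte paralogs (Oas1c, Oas1d and Oas1e), 5 interferon-type genes (Oas1a, Oas1b, Oas1g, Oas2 and Oas3) and 2 other Oas1 copies (Oas1f and Oas1h).

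The 10 genes lie in 191320 bp of chromosome 5 (GRCm38, GENCODE vM21). Oas2 is at chr5:120730333-120749853 and Oas3 at chr5:120753098-120777661, both on the minus strand. Oas1e (chr5:120786226-120795530) and Oas1c (chr5:120800194-120812514) follow on the minus strand, and Oas1b (chr5:120812635-120824163) starts on the plus strand 121 bp from the start of Oas1c, so that this pair is head to head. Oas1f (chr5:120847367-120857986) and Oas1h (chr5:120861421-120873506) are next on the plus strand. The last 3 genes are Oas1g (chr5:120876142-120887613, minus strand), Oas1a (chr5:120896256-120907521, minus strand) and Oas1d (chr5:120914536-120921652, plus strand). Oas1d and Oas1e, which were 90.9% identical over their coding sequences, stand at opposite sides of the Oas1 copies. Oas1a and Oas1g were the closest pair, at 96.7%.

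The coding sequences of the 8 Oas1 copies differ at the triplets that hold the catalytic aspartates of the synthetase, which bind the metal ions of the active site. The 30 coding bases around the first aspartate pair are shown because the copies that keep aspartate triplets at both positions were also those with the lowest levels in the oocyte, given further on. Capitals mark the triplets of the first aspartate, of the residue between and of the second aspartate, as aligned to Oas1a, where they are codons 76 to 78. All 8 stretches lie within an exon and are written 5′ to 3′ on the coding strand from the GENCODE vM21 transcripts.
Oas1a: ctcaagggcaagtcaGACGCTGACctggtg
Oas1g: ctcaagggcaggtcaGACGCTGACctggtg
Oas1b: ctcaagggcaggtcaGACGCTGACctggtg
Oas1h: ctcaagggcaggtcaGAGGTCGACctattg
Oas1e: ctcaagggaaggtcaGAGGCCAACatggtg
Oas1d: ctcaagggcaggtctGAGGCCAACatggtg
Oas1c: ctcaagggcaagtcaGAGGCCAAAatggtg
Oas1f: ctcaagagcaagtcaGAGGCTAAAatggtg

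The marked triplets of Oas1a (chr5:120905828-120905857), Oas1g (chr5:120886005-120886034) and Oas1b (chr5:120814441-120814470) code for aspartate, alanine and aspartate. Those of Oas1d (chr5:120915689-120915718) and Oas1e (chr5:120794337-120794366) code for glutamate, alanine and asparagine. Oas1c (chr5:120808192-120808221) and Oas1f (chr5:120848196-120848225) carry triplets for glutamate, alanine and lysine. Oas1h (chr5:120862560-120862589) has glutamate, valine and aspartate there. In all, 3 of the 8 copies kept an aspartate triplet at both positions, 1 kept it at 1 of them and 4 at neither. A last catalytic aspartate, on a later stretch of the same coding sequence, is encoded in 7 of the 8 copies, the exception being Oas1h.
Oas1a: gaggtggagtttGATgtgctgccagccttt
Oas1e: gaggtggaatttGATgtgcagccagcctat
Oas1h: gaggtggaatttCATatgcagacagcctat

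Capitals mark here the triplet aligned to that last aspartate, GAT for aspartate in Oas1a (chr5:120905606-120905635) and Oas1e (chr5:120794115-120794144) and CAT for histidine in Oas1h (chr5:120862782-120862811). Oas1b, the flavivirus resistance gene of the mouse, is truncated in common laboratory strains. Its annotated reading frame in this C57BL/6J assembly held 1 in-frame stop codon, and the annotation calls it a polymorphic pseudogene. The other 7 Oas1 frames held none.

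The Oas genes reached from among the most abundant transcripts of the oocyte down to 0. Levels are given as FPKM (fragment counts divided by transcript length and by library size), which are per length and can be set side by side between genes. Oas1h, a copy whose role is not well known, was the most abundant. WT oocytes held 2771, 2594 and 3005 FPKM of it and Lsm14b-KO oocytes held 2864, 2131 and 2889 FPKM. Averaged over the 6 libraries it ranked 75 among all 24255 genes. It was high in every library, and the lowest single value came from Lsm14b-KO replicate 2.

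Oas1e, an oocyte paralog, came next and ranked 92. It stood at 1935, 1959 and 3057 FPKM in WT and at 1768, 1798 and 1839 FPKM in Lsm14b-KO oocytes. WT replicate 3 was well above the other WT libraries, and the 3 Lsm14b-KO libraries were close together. In this replicate Oas1e passed Oas1h, which was 0.983 times its level there and 1.19 to 1.62 times its level in the other 5 libraries, so the order of these neighbours did not hold beyond the spread of the libraries.

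Oas1d, the paralog known for its role in the oocyte, was at 513, 524 and 962 FPKM in WT and at 410, 857 and 437 FPKM in Lsm14b-KO oocytes, with rank 212. Each group held 1 high library, WT replicate 3 and Lsm14b-KO replicate 2. Oas1d was 0.232 to 0.476 times the level of Oas1e, and so below it in all 6 libraries. Oas1c, the least abundant oocyte paralog, had 122, 122 and 164 FPKM in WT and 100, 383 and 249 FPKM in Lsm14b-KO oocytes, with rank 456. Its lowest and its highest value were both from Lsm14b-KO libraries, and it was 0.171 to 0.570 times the level of Oas1d.

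Oas1f lay far below these 4 copies. It had 14.0, 14.5 and 19.7 FPKM in WT oocytes, against 7.62, 12.9 and 10.9 FPKM in Lsm14b-KO oocytes. Within a library Oas1h exceeded it by 153 to 376 times, and Oas1c exceeded it by 8.36 to 29.7 times. Oas1f and Oas1c thus code for the same 3 marked residues at very different levels.

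**Figure D1:**
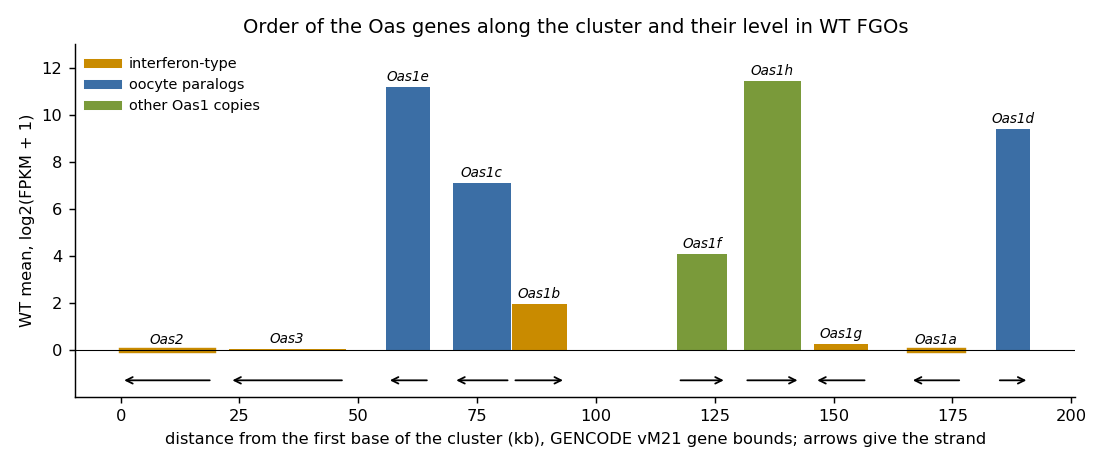
The horizontal axis is the distance in kb from the first base of the Oas cluster and the vertical axis is log2 of the mean WT level plus 1 FPKM, with 1 bar for each gene drawn over its annotated length and coloured by class; arrows give the strand. The 4 tallest bars, Oas1h, Oas1e, Oas1d and Oas1c, are interspersed with genes at or near 0 (Oas2 and Oas3 before Oas1e, Oas1g and Oas1a between Oas1h and Oas1d).

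The 5 interferon-type genes were at or near the bottom of the range. Oas1b was the only 1 of them above 1 FPKM, with 2.09, 3.23 and 3.27 FPKM in WT and 1.32, 2.23 and 2.95 FPKM in Lsm14b-KO oocytes. Oas1f was 3.71 to 6.67 times higher than Oas1b within a library, and Oas1c, whose start is 121 bp away, was 37.9 to 172 times higher. Oas1b is thus at the foot of the order of the 6 copies that were measured in every library.

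Oas1g, a catalytically active synthetase, read 0.434, 0.122 and 0 FPKM in WT oocytes, against 0, 0.287 and 0.321 FPKM in Lsm14b-KO libraries. After adjustment for the relative depth of the libraries, these values were 3.12, 1, 0, 0, 4.02 and 4.99 times the smallest value above 0, so that they may rest on very few fragments. Oas3, a large synthetase with repeated OAS units, was at 0, 0 and 0.110 FPKM in WT and at 0.0850, 0.0579 and 0.0780 FPKM in Lsm14b-KO oocytes. Oas2, the middle-sized synthetase, and Oas1a, an active Oas1 enzyme, were listed at 0 in all 6 libraries.

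A value of 0 in the table is not proof that a transcript was missing. Of 81 ribosomal protein symbols, 13 were listed at 0 in at least 1 library and 3 in all 6. These symbols were picked by name, and such a set can hold tissue-restricted copies, for which a 0 may be true. Shared sequence is another limit for the Oas1a and Oas1g pair: 40.9% of the 100-base windows of the Oas1a transcript occur without a mismatch in Oas1g, and 38.2% of those of Oas1g occur in Oas1a. Among the other 8 genes no such window was shared with another Oas gene. Gm43069, an annotated antisense gene, overlaps Oas1e and Oas1c, and the strand use of the counting was not given in the sources used here, which name 2 different library kits, so reads of the overlapping parts cannot be told apart.

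**Figure D2:**
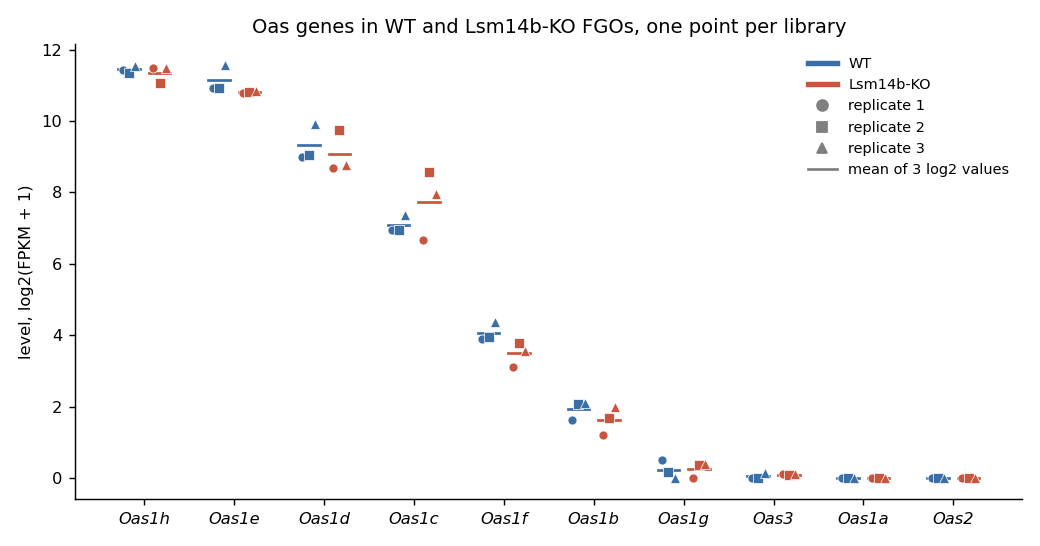
The vertical axis is log2 of the level plus 1 FPKM for each of the 10 Oas genes on the horizontal axis, with 1 point for each library, blue for WT and red for Lsm14b-KO, and a bar at the mean of the 3 log2 values. Oas1h and Oas1e sit highest in both genotypes, 6 genes from Oas1f to Oas2 step down towards 0, and the widest scatter among the abundant copies is that of Oas1c in Lsm14b-KO libraries, from 100 to 383 FPKM.

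Together the 10 genes gave 5357, 5218 and 7211 FPKM in WT and 5151, 5184 and 5427 FPKM in Lsm14b-KO libraries (5929 ± 1113 and 5254 ± 150.9, mean ± SD, n = 3 each). The groups overlapped, WT replicate 2 lying below Lsm14b-KO replicate 3. Oas1h supplied 47.7% ± 5.32 of this sum in WT and 49.98% ± 7.77 in Lsm14b-KO oocytes, and Oas1e supplied 38.7% ± 3.29 and 34.3% ± 0.402. For Oas1d the share was 10.99% ± 2.05 in WT and 10.8% ± 4.92 in Lsm14b-KO oocytes. Oas1c supplied 2.30% ± 0.0401 of the sum in WT and 4.64% ± 2.73 in Lsm14b-KO oocytes, where its single values were 1.94%, 7.40% and 4.58%. The Oas1c share was therefore nearly constant over the WT libraries and was below that level in 1 Lsm14b-KO library and above it in the other 2.

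As a share of all FPKM of a library, the Oas genes made up 0.431%, 0.445% and 0.632% in WT and 0.500%, 0.918% and 0.802% in Lsm14b-KO oocytes. The total of all FPKM itself differed: it was 1141324 to 1244182 in WT libraries, 1029728 in Lsm14b-KO replicate 1, and no more than 676656 in Lsm14b-KO replicate 3 and 564671 in replicate 2. The direction of a change in an Oas gene can therefore turn with the way libraries are scaled, and the changes below are given under several scalings.

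The question of the comparison between genotypes was whether loss of Lsm14b, an RNA-binding protein of the oocyte, shifted the Oas transcripts. As a check of the labels, Lsm14b itself read 2.77, 3.98 and 1.72 FPKM in WT and 0, 0 and 0.102 FPKM in Lsm14b-KO libraries (log2 fold change -1.85, SE 0.25, limma adjusted p = 0.0038; -4.46 and -6.90 with pseudocounts of 0.1 and 0.01 FPKM). All 12 oocyte markers reached 1 FPKM and summed to 7114 to 9138 FPKM in WT and to 6818 to 9082 FPKM in Lsm14b-KO libraries. Cumulus and granulosa markers summed to 9.68 to 13.6 FPKM and 6.14 to 9.96 FPKM. Of these 9 markers, 3 (Foxl2, Inhba and Amh) were at 0 in all libraries and 3 reached 1 FPKM in some library. Cyp19a1 was the highest of them, with means of 10.1 FPKM in WT and 4.745 FPKM in Lsm14b-KO libraries. The part of such cells in the Oas values was not tested. Of 6 theca and stroma markers 4 were at 0 throughout and the sums did not pass 0.397 FPKM, all 6 red blood cell markers were at 0, and 5 of 7 immune cell markers, Ptprc among them, were at 0 with sums up to 0.776 FPKM.

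None of the Oas genes passed the test between genotypes. A gene was tested when it reached 1 FPKM in at least 1 library, which 6 of the 10 did (Oas1b, Oas1c, Oas1d, Oas1e, Oas1f and Oas1h), and it was called at a limma adjusted p under 0.05 over all 6398 tested genes. The count of Oas genes called was 0 of 6, against a background of 21.6% of all tested genes (1383), made up of 408 genes with higher (6.38%) and 975 with lower (15.2%) values after loss of Lsm14b. The split of the background was 833 higher and 486 lower when libraries were scaled to equal FPKM sums, 540 and 735 after quantile normalization, and 701 and 755 with equal medians. Leaving out 1 library moved the count over all genes to between 321 (without Lsm14b-KO replicate 3) and 2952 (without Lsm14b-KO replicate 1). At an unadjusted p under 0.05 the count of Oas genes was also 0, beside 39.4% of all tested genes.

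Of the 4 abundant copies, Oas1h and Oas1e had the narrower intervals. For Oas1h the means were 2790 ± 206 FPKM in WT and 2628 ± 430.5 FPKM in Lsm14b-KO oocytes (SD, n = 3 each), and the groups overlapped. The log2 fold change, on the scale of log2(FPKM + 1), was -0.10 (SE 0.27, 95% interval -0.71 to 0.52, limma adjusted p = 0.797). Oas1e averaged 2317 ± 641 FPKM and 1802 ± 35.4 FPKM, and every Lsm14b-KO library was below every WT library. Its log2 fold change was -0.33 (SE 0.29, 95% interval -1.0 to 0.34, limma adjusted p = 0.408), and it turned to 0.36 with equal FPKM sums and 0.45 after quantile normalization. For neither copy is a change shown in the deposited FPKM. The intervals run from 0.611 to 1.43 times the WT level for Oas1h and from 0.500 to 1.27 times for Oas1e. With equal FPKM sums the log2 fold change of Oas1h was 0.60.

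The other oocyte paralogs were more scattered. Oas1d averaged 666.5 ± 256 FPKM in WT and 568 ± 250.4 FPKM in Lsm14b-KO oocytes, with overlapping groups and a log2 fold change of -0.25 (SE 0.41, 95% interval -1.20 to 0.70, limma adjusted p = 0.659). Oas1c averaged 136 ± 24.3 FPKM and 244 ± 142 FPKM, and its log2 fold change was 0.65 (SE 0.49, 95% interval -0.48 to 1.78, limma adjusted p = 0.338). Oas1c was below all WT libraries in Lsm14b-KO replicate 1 and above all of them in replicates 2 and 3. Without Lsm14b-KO replicate 1 its log2 fold change was 1.19 (SE 0.26, limma adjusted p = 0.00633), in a fit that called 47.0% of all tested genes.

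Among the low copies, Oas1f averaged 16.0 ± 3.15 FPKM in WT and 10.5 ± 2.68 FPKM in Lsm14b-KO oocytes, and all 3 Lsm14b-KO libraries were below all 3 WT libraries. Its log2 fold change was -0.58 (SE 0.28, 95% interval -1.23 to 0.07, limma adjusted p = 0.159), against 0.069 with equal FPKM sums. Oas1b averaged 2.86 ± 0.668 FPKM and 2.17 ± 0.813 FPKM with overlapping groups (log2 fold change -0.30, SE 0.26, limma adjusted p = 0.39). Groups without overlap were thus found for Oas1e and Oas1f, 2 of the 6 tested Oas genes, beside 45.0% of all tested genes. The share is below that of the background, and nothing particular to the Oas genes follows from it.

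Scaling moved the median log2 fold change of all tested genes from -0.08 in the deposited FPKM to 0.40 with equal FPKM sums, 0.07 after quantile normalization and 0.10 with equal medians, so the Oas genes were also read relative to that median. On this relative scale Oas1c stood at 0.73, 0.95, 1.28 and 0.81 in these 4 scalings, above the median in each. Oas1f stood at -0.51, -0.33, -0.32 and -0.44 and Oas1b at -0.23, -0.18, -0.33 and -0.22, below it in each. Equal FPKM sums and equal medians multiply each library by 1 factor, so with the deposited FPKM they are not independent readings. The sign turned for the other 3 copies: the relative values were -0.02, 0.20, 0.68 and 0.07 for Oas1h, -0.25, -0.03, 0.38 and -0.17 for Oas1e, and -0.18, 0.05, 0.47 and -0.09 for Oas1d. The quantile setting was the only 1 of these in which an Oas gene was called, Oas1h at a log2 fold change of 0.75 (SE 0.21, limma adjusted p = 0.0444), where 19.9% of all tested genes were called.

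**Figure D3:**
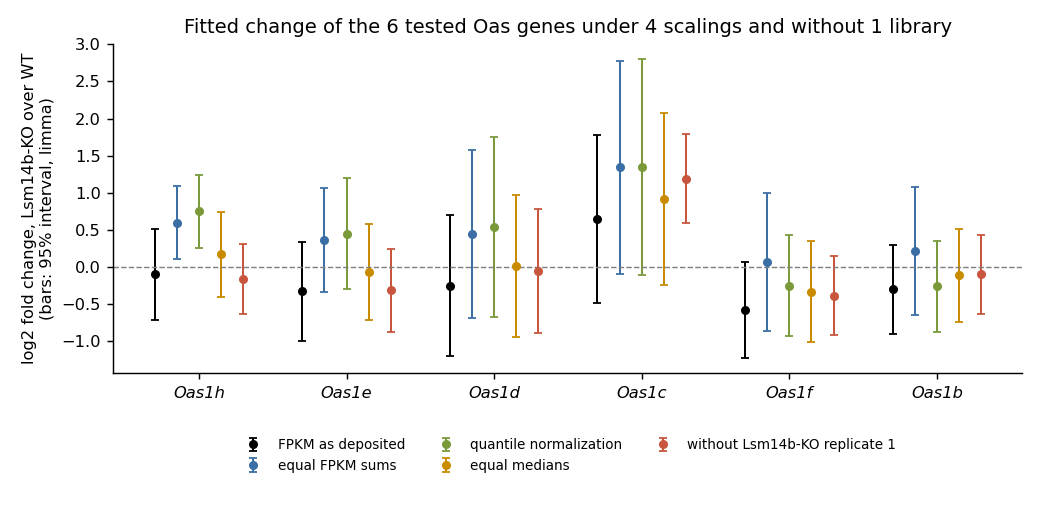
The vertical axis is the fitted log2 fold change of Lsm14b-KO over WT for the 6 tested Oas genes on the horizontal axis, with 95% intervals from limma, in the deposited FPKM, under 3 other scalings and without Lsm14b-KO replicate 1. Oas1c is above 0 in all 5 settings, but its interval clears 0 only without that library, at 1.19. Each of the other 5 genes changes sign in at least 1 scaling. The Oas1h interval lies above 0 with equal FPKM sums (0.105 to 1.086) and after quantile normalization (0.257 to 1.238).

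Ratios between paralogs of the same library do not depend on a scaling by 1 factor per library. For Oas1c over Oas1d the ratio was 0.238, 0.234 and 0.171 in WT and 0.244, 0.448 and 0.570 in Lsm14b-KO libraries. The Lsm14b-KO values were all higher than the WT values, although replicate 1 exceeded the highest WT library by very little. The mean log2 ratio differed by 0.90 between genotypes, with an exact permutation p of 0.10 (two-sided, n = 3 each), which is the smallest p this design allows, and 0.30 after adjustment over the 3 pairs.

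Oas1c over Oas1e was 0.0630, 0.0625 and 0.0537 in WT and 0.0566, 0.213 and 0.135 in Lsm14b-KO libraries. Replicate 1 of the Lsm14b-KO group lay inside the WT range, and the difference of 0.98 in log2 ratio had an exact permutation p of 0.30 (adjusted 0.45). Oas1d over Oas1e was 0.265, 0.268 and 0.315 in WT and 0.232, 0.476 and 0.237 in Lsm14b-KO libraries. This difference of 0.08 in log2 ratio had an exact permutation p of 1 and rested on Lsm14b-KO replicate 2, without which it was -0.26.

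Against Oas1f, a pair chosen after the values were seen and therefore not tested, Oas1c stood at 8.74, 8.44 and 8.36 in WT and at 13.1, 29.7 and 22.8 in Lsm14b-KO oocytes. The WT ratios were almost the same in all 3 libraries (SD 0.03 in log2) and the Lsm14b-KO ratios were all higher, by 1.28 in mean log2 ratio. This pair joins the highest and the lowest fitted change of the tested Oas genes. It was picked from all pairs of Oas1c, Oas1d, Oas1e, Oas1f and Oas1h, of which only it and Oas1c over Oas1d did not overlap. No share of ratios without overlap over all genes was computed, and for single genes that share was 45.0%. Oas1h over Oas1e, chosen in the same way, overlapped between genotypes.

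**Figure D4:**
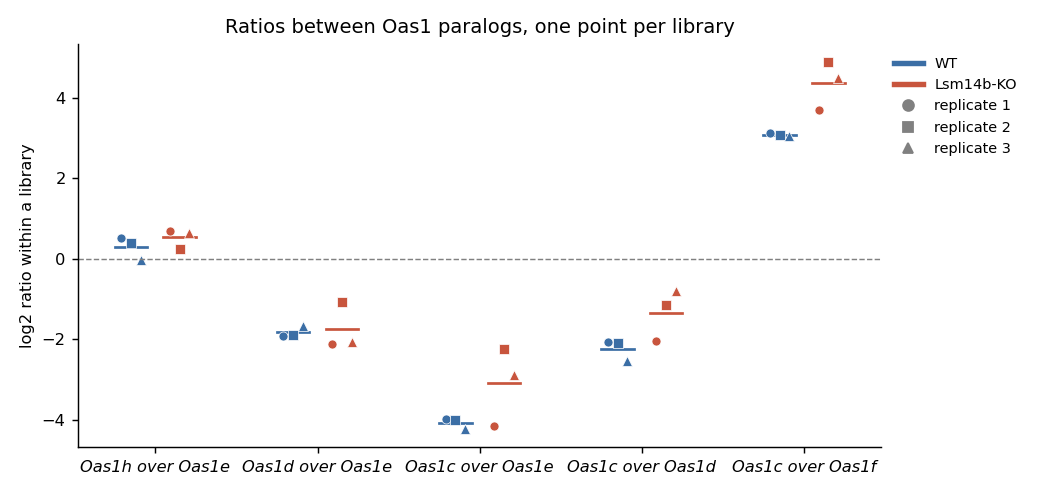
The vertical axis is the log2 ratio of 2 Oas1 copies within a library for the 5 pairs on the horizontal axis, with 1 point for each library, blue for WT and red for Lsm14b-KO, and a bar at the group mean. The groups are apart for Oas1c over Oas1d and for Oas1c over Oas1f, where mean log2 ratios differ by 0.90 and 1.28, and they overlap for the other 3 pairs. Pairs with Oas1f or Oas1h were picked after the values were seen and were not tested.

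The genes whose profile over the 6 libraries was nearest to each oocyte paralog differed from paralog to paralog. Nearness was the Euclidean distance between centred log2(FPKM + 1) values among 2559 tested genes with a mean of at least 5 FPKM. For Oas1c they were Stx5a, a syntaxin of transport between endoplasmic reticulum and Golgi (distance 0.18), Rdh11, a retinol dehydrogenase (0.19), and Trim61 (0.19). Trim61, for example, read 479, 443 and 625 FPKM in WT and 372, 1491 and 830.3 FPKM in Lsm14b-KO oocytes, with the same low replicate 1 as Oas1c. That likeness follows from the choice by distance.

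For Oas1d the nearest genes were farther off: Birc3, an inhibitor of apoptosis protein (0.50), Gm13023 (0.52) and AW146154 (0.54). For Oas1e they were Lhpp, a phosphatase (distance 0.25 on the log2 scale), Yipf1 (0.26) and Cldnd1 (0.26), each with its highest value in WT replicate 3. No gene was named for more than 1 of the 3 paralogs, whose own profiles lay 0.86 to 1.83 apart, so nothing further follows from it. These distances describe 6 libraries and carry no test.

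Of 6 other genes of the OAS pathway, 3 stayed below 1 FPKM in every library. The OAS-like genes were low: Oasl2 was above 0 in 2 libraries, at 0.0769 and 0.0901 FPKM, and Oasl1 ranged from 0.356 to 2.04 FPKM with overlapping groups (log2 fold change -0.24, SE 0.32, limma adjusted p = 0.587). Pde12, an enzyme that degrades oligoadenylates, stayed between 0.45 and 0.745 FPKM. Cnp was above 0 only in Lsm14b-KO replicate 3, at 0.280 FPKM. Akap7, a kinase-anchoring protein, had 10.9 to 20.5 FPKM and no call (log2 fold change -0.26, SE 0.29, limma adjusted p = 0.521).

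Abce1, a ribosome recycling factor, was the member of this list of 6 past the threshold, which 21.6% of all tested genes passed. It read 0.141, 0.0620 and 0.206 FPKM in WT and 0.905, 1.67 and 1.37 FPKM in Lsm14b-KO libraries. It was tested only because its Lsm14b-KO values reached 1 FPKM, so the call (limma adjusted p = 0.0155) draws on a gene selected through the group where it is high and supports no direction. The log2 fold change was 1.01 with a pseudocount of 1 FPKM, 2.59 with 0.1 and 3.27 with 0.01. The call was lost without WT replicate 1, WT replicate 2, Lsm14b-KO replicate 2 or Lsm14b-KO replicate 3 (limma adjusted p = 0.061, 0.067, 0.0536 and 0.081). The list held 2 other tested genes, Oasl1 and Akap7, and neither was called.

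Genes of double-stranded RNA sensing and of the interferon response did not, with the exception of Ifitm3 and in part Dicer1, reach the range of Oas1h, Oas1e, Oas1d and Oas1c. Most genes of the table did not either, since Oas1c, the lowest of these copies by mean, ranked 456 among all 24255. Of 12 sensing genes 2 were at 0 in all libraries and 8 stayed below 1 FPKM. Of the 4 tested, 1 was higher and 0 lower, beside 6.38% higher and 15.2% lower of all tested genes. Their median log2 fold change was 0.08, against -0.08 for all tested genes. Mavs, at 0.53, enters that median and was tested only through Lsm14b-KO replicate 2, at 1.22 FPKM. Ddx58 had 7.30 to 8.10 FPKM in WT and 1.52 to 5.95 FPKM in Lsm14b-KO oocytes. It was not called (log2 fold change -1.06, limma adjusted p = 0.0663). The gene that passed was Dicer1, the nuclease that cuts double-stranded RNA, with 15.8, 17.2 and 24.2 FPKM in WT and 26.7, 122 and 96.4 FPKM in Lsm14b-KO oocytes. Its log2 fold change was 1.81 (SE 0.55, limma adjusted p = 0.0496). The Dicer1 call was lost in 8 of 15 other settings, among them the fits without WT replicate 1, 2 or 3 (limma adjusted p = 0.154, 0.141 and 0.101) and without Lsm14b-KO replicate 2 or 3 (limma adjusted p = 0.105 and 0.168).

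Of 13 interferon signalling genes in the table, 4 were at 0 throughout and 10 stayed below 1 FPKM. The tested genes of this list numbered 3, with 1 higher and 0 lower, beside 6.38% and 15.2% of all tested genes. Their median log2 fold change was 0.11, and Mb21d1 among them was tested only through Lsm14b-KO replicate 3. The higher gene was Jak1, a kinase of the interferon receptors, at 0.896, 1.40 and 1.39 FPKM in WT and 3.13, 4.62 and 3.19 FPKM in Lsm14b-KO oocytes (log2 fold change 1.05, SE 0.22, limma adjusted p = 0.0153). Without WT replicate 1, WT replicate 2 or Lsm14b-KO replicate 3 the Jak1 call was lost (limma adjusted p = 0.0722, 0.0566 and 0.0599). Of 25 interferon-stimulated genes 13 were at 0 in every library and 20 stayed below 1 FPKM. None of the 5 tested was called, beside 21.6% of all tested genes. Their median log2 fold change was -0.05, and Ifit1 among them was tested only through Lsm14b-KO replicate 2. Over both interferon lists, 30 of 38 genes stayed below 1 FPKM, as did 4 of the 5 interferon-type Oas genes and 73.6% of all 24255 genes in the table. At 0 in all libraries were 17 of these 38 genes, beside 9930 of all 24255. Ifitm3, a membrane protein that is also expressed without interferon and the most abundant gene of these lists, had a mean of 212 FPKM in WT and 202 FPKM in Lsm14b-KO oocytes and was below Oas1d in both.

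**Figure D5:**
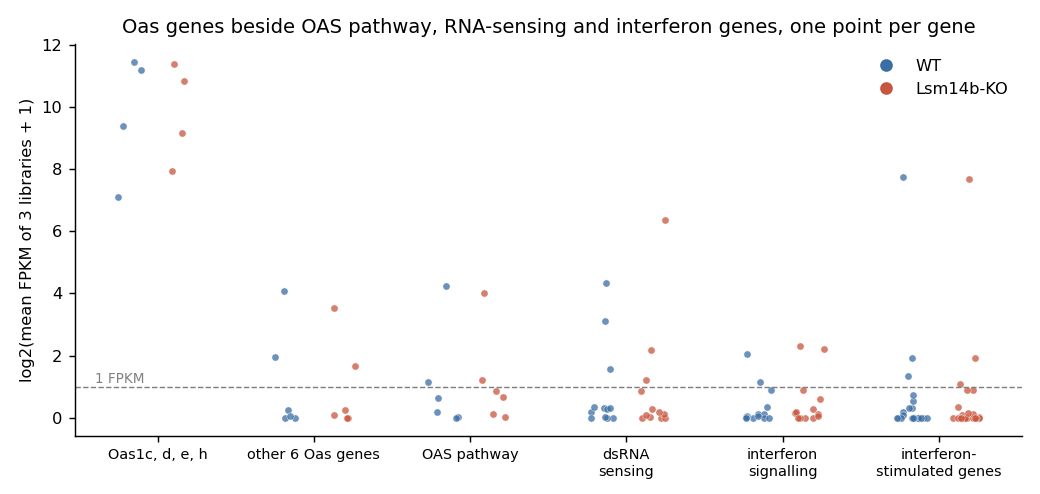
The vertical axis is log2 of the mean level of 3 libraries plus 1 FPKM, with 1 point for each gene, blue for WT and red for Lsm14b-KO, in 2 sets of Oas genes and 4 lists of pathway genes along the horizontal axis; the dashed line marks 1 FPKM. Oas1c, Oas1d, Oas1e and Oas1h lie far above most points of the 4 lists, of which Ifitm3 (212 FPKM in WT) is the highest.

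Promoter sequence was available for 6 of the 10 genes as RefSeq windows of 300 bases (GRCm38.p6, 250 before to 50 after the start): Oas1a, Oas1c, Oas1f, Oas1g, Oas1h and Oas3. They were searched on both strands for the core of the interferon-stimulated response element, taken as GAAA, any 2 bases and GAAA again, and matches were allowed to overlap. The motif was present in 3.44% of 32851 promoters (1131) and in 4 of these 6. Oas1a and Oas1g share the whole stretch printed below, and the Oas1c match is the reverse complement of theirs. The 4 are therefore not all separate cases. The matches are shown with the direction in which each reads, since that of Oas1c lies between the starts of Oas1c and Oas1b.
Oas1a: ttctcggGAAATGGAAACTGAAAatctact
Oas1g: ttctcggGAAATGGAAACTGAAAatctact
Oas3: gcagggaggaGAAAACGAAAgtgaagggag
Oas1c: atgggacTTTCAGTTTCCATTTCccgggaa

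Each line runs 5′ to 3′ on the strand of its gene and capitals mark the matched bases, which are overlapping matches in all but Oas3. The stretches are at chr5:120907523-120907552 for Oas1a, chr5:120887609-120887638 for Oas1g, chr5:120777715-120777744 for Oas3 and chr5:120812606-120812635 for Oas1c, all on the minus strand. In Oas1a, Oas1g and Oas3, which were at or near 0 FPKM, the motif read in the direction of the gene. In Oas1c, at 136 FPKM in WT, it lay 98 bp from the start and read in the opposite direction. That is the direction of Oas1b, and the stretch as printed begins at the first annotated base of Oas1b. Oas1b, at 2.09 to 3.27 FPKM in WT, had no window of its own. The match therefore cannot be assigned to Oas1c rather than Oas1b. Read in the direction of Oas1b, its marked bases are the same as those of Oas1a and Oas1g. No match was found in the windows of Oas1f and Oas1h. A match describes letters in a window and shows neither binding nor regulation.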

How the data were processed

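RNA of 3 WT and 3 Lsm14b-KO samples of 20 FGOs had been amplified with a Smart-seq2 procedure, per the labels, and sequenced; the sample labels and the series' design text name different library kits. Per the labels and the submitters' processing notes the authors aligned reads with TopHat2 2.0.13 and quantified genes with Cufflinks 2.2.1 and Cuffdiff, and they deposited FPKM per gene and library; the annotation was not given in the sources used here. Columns of the authors' fold changes, p-values and q-values were not used. Read totals are not in the table. From the steps between low FPKM values the relative depth of the libraries was estimated, roughly, as 1 to 1.14 in WT and 1.33 to 2.17 in Lsm14b-KO samples.

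FPKM were tested as log2(FPKM + 1) with limma 3.58.1 in R 4.3.3 (empirical Bayes with intensity trend, genes that reached 1 FPKM in 1 or more libraries, Benjamini-Hochberg over 6398 genes, two-sided). The test was checked on simulated data with independent noise for each gene. Shifts of a whole library were not simulated, so the check does not cover them. Paralog ratios used a pseudocount of 0.1 FPKM and exact permutation tests. Alternatives were other pseudocounts, filters and scalings, a replicate block, a fit without trend and leaving out each library. All 10 Oas genes are described, as are Lsm14b, those genes of 4 pathway lists that passed or belong to the OAS pathway list (6 genes; 1 further gene is not reported here) and the 3 nearest profiles for each oocyte paralog. Ifitm3, Ddx58, Mavs, Mb21d1, Ifit1, Cyp19a1 and the pairs outside Oas1c, Oas1d and Oas1e were named after their values were seen. The members and lists were chosen with earlier results of these data known. Coding sequences came from GENCODE vM21 and were aligned pairwise with Biopython 1.88.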

Additional observations from a re-analysis of the deposited data

How the results depend on the processing

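The count of called genes was 1383 and became 720 without a filter on low values, and it ranged from 321 to 2952 when 1 library was left out (408, 426 and 537 without WT replicate 1, 2 and 3; 2952, 915 and 321 without Lsm14b-KO replicate 1, 2 and 3). The count of Oas genes called was 0 in 13 of 15 alternatives and 1 after quantile normalization (Oas1h), and ranged from 0 to 1 when 1 library was left out (Oas1c without Lsm14b-KO replicate 1). With equal FPKM sums the log2 fold changes turned positive for Oas1b (0.21), Oas1d (0.44), Oas1e (0.36), Oas1f (0.069), Oas1h (0.60), Oasl1 (0.069) and Akap7 (0.39). Quantile normalization gave 0.54 for Oas1d, 0.45 for Oas1e, 0.75 for Oas1h and 0.073 for Akap7, and equal medians gave 0.014 for Oas1d and 0.17 for Oas1h. The cause of these turns was not tested. Leaving out 1 library gave -0.59 to 0.046 for Oas1d (0.046 without WT replicate 3), -0.17 to 0.047 for Oas1h (0.047 without Lsm14b-KO replicate 2) and -0.56 to 0.018 for Oasl1 (0.018 without WT replicate 1), and -0.26 to 0.26 for the log2 ratio of Oas1d over Oas1e; the cause was not tested. Without a turn of sign the same ranges were -0.44 to -0.11 for Oas1e, -0.48 to -0.098 for Oas1b, -0.49 to -0.063 for Akap7 and 0.55 to 1.51 for the log2 ratio of Oas1c over Oas1e. The Oas1c value stayed positive in all 15 alternatives, from 0.23 to 1.35.

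The labels do not say whether replicate numbers pair the samples. Deviations of same-numbered libraries correlated at 0.19, -0.13 and 0.02, and those of differently numbered libraries at -0.275 to 0.306, which cannot decide it. A fit with a replicate block called 1244 genes and 0 Oas genes, and same-numbered differences in the paralog ratios were 0.90, 0.98 and 0.08 (exact sign-flip p = 0.25, 0.50 and 1). With 3 libraries a group the 95% intervals ran from 0.435 to 1.62 times the WT level for Oas1d and from 0.717 to 3.44 times for Oas1c.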
